A study of Mus musculus with 2 samples.

Results

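The immediate-early genes of the AP-1 family, together with Egr1 and Nr4a1, were followed by scRNA-seq across the cells of healing mouse fracture calluses. The set was fixed by gene symbol and holds 10 members (Fos, Fosb, Fosl1, Fosl2, Jun, Junb, Jund, Atf3, Egr1 and Nr4a1) of the 32285 genes in the deposited matrices. Every member had its own row in both matrices and more than the 50 UMIs (unique molecular identifiers, each standing for 1 captured RNA molecule) required of a gene in each library, so all 10 were measured. The calluses came from wild-type adult male C57BL/6J mice after a transverse femoral fracture, and were dissociated by enzyme digestion before capture with a 3′ droplet kit. The study collected callus at 10 and 20 days post fracture (dpf) with 5 mice at each time, but the labels of the libraries, MGJ and MGJ2, are alike and do not say which time or which mice each one holds. The libraries were therefore placed in no group, every value is given for each of them side by side, and neither library was tested against the other. Since there is 1 library of each, intervals below cover counting error only, and the spread between mice is unknown.

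AP-1 is a dimer of basic leucine zipper proteins, in which a Jun protein pairs with a Fos, Atf or second Jun protein and binds DNA. Immediate-early genes are transcribed within minutes of a growth factor, a cytokine, mechanical load or tissue damage, without new protein synthesis, and their RNAs are short-lived. In bone, Fos is known for its need in osteoclast formation and Fosl1 and Fosl2 for their roles in matrix formation, while enzyme digestion of a tissue is known to induce the same genes in dissociated cells. No undigested callus was analysed here, and the part of digestion in the levels below was not tested.

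After barcodes with under 200 genes or over 20% mitochondrial UMIs and doublet calls had been left out, 12810 cells remained in MGJ (median 5419.5 UMIs per cell) and 7440 in MGJ2 (median 4838.5). Cells were clustered without the members or any other listed gene, and a cluster was called "X-like" from markers of that cell type. Clusters that met no naming rule are called by their leading genes. The libraries differed in make-up: chondrocyte-like cells were 22.4% of the cells of MGJ (2869 cells) and 1.84% of MGJ2 (137 cells), and most clusters were mainly from 1 library. All 14 chondrocyte markers were at least 2-fold higher in chondrocyte-like cells than in the other cells of each library. The same markers gave the class its name, so this is no separate check of it. Not every class reached this for all its markers. In monocyte-like cells 6 of 8 did in each library. Their summed marker level was below that of the other cells in MGJ (4814 against 8383 UMIs per 1000000) and above it in MGJ2 (5307 against 2000). In all, 19 barcodes occurred in both libraries. Levels are UMIs of a gene per 1000000 UMIs of a class (CPM) with exact Poisson 95% intervals, ratios are within 1 library with exact conditional binomial 95% intervals, and "past 2-fold" means a ratio of at least 2 or at most 0.5.

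Gene positions are those of GRCm38 with GENCODE M21, where a gene can begin upstream or downstream of its RefSeq start. Fos is at chr12:85473890-85477273 on the plus strand and Nr4a1 at chr15:101254269-101274795 on the plus strand. Junb (chr8:84974484-84978718, minus strand) and Jund (chr8:70698949-70700616, plus strand) share a chromosome. No member overlapped another gene on its own strand, and the annotated partners on the opposite strand were Ccdc85b for Fosl1, Junos for Jun, Prdx2 for Junb, Gm11175 for Jund and Gm24748 for Atf3. The start regions of 4 members are shown because they hold TGACG, the half-site of the cAMP response element through which CREB and ATF proteins act on immediate-early genes. Each line gives the 150 bases just before the RefSeq transcription start (GRCm38.p6), 5′ to 3′ on the strand of the gene, with TGACG or its reverse complement CGTCA in capitals.

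Fos, chr12:85473740-85473889, plus strand: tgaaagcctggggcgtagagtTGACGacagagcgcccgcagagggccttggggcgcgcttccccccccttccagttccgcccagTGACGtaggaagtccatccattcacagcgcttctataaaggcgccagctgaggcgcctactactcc
Fosb, chr7:19310046-19310195, minus strand: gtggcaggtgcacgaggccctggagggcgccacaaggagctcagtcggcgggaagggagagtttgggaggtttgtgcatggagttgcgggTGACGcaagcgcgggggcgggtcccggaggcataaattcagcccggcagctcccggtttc
Junb, chr8:84978749-84978898, minus strand: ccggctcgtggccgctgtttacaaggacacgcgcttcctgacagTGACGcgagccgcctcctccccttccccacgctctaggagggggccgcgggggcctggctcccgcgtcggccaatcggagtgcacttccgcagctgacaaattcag
Nr4a1, chr15:101266696-101266845, plus strand: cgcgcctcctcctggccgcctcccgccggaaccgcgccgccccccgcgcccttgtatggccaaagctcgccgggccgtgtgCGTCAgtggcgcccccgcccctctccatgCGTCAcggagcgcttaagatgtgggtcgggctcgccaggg

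Over the 250 bases before the start, the windows of 8 of the 10 members were searched on both strands. The half-site TGACG was found in 5 of the 8 (Fos, Fosb, Junb, Atf3 and Nr4a1), beside 17.8% of all 32851 windows of that length. Nr4a1 held 4 copies and Fos 2. The AP-1 site TGACTCA (in 4.46% of all windows), the full element TGACGTCA (1.55%), the CArG box bound by serum response factor (1.47%) and the EGR site GCGTGGGCG (0.536%) were found in none of the 8 windows. The Jund window (chr8:70697489-70697788, set by its RefSeq start) ended before the gene start given above (70698949). It therefore does not describe the bases just before that start. Nor do the windows of Nr4a1 (chr15:101266596-101266895), Atf3 (chr1:191183284-191183583) and Fosl2 (chr5:32136222-32136521) for their genes. These lay inside the GENCODE bounds of the gene, downstream of its start. A match describes letters only, and sites farther upstream were not searched.

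**Figure D1:**
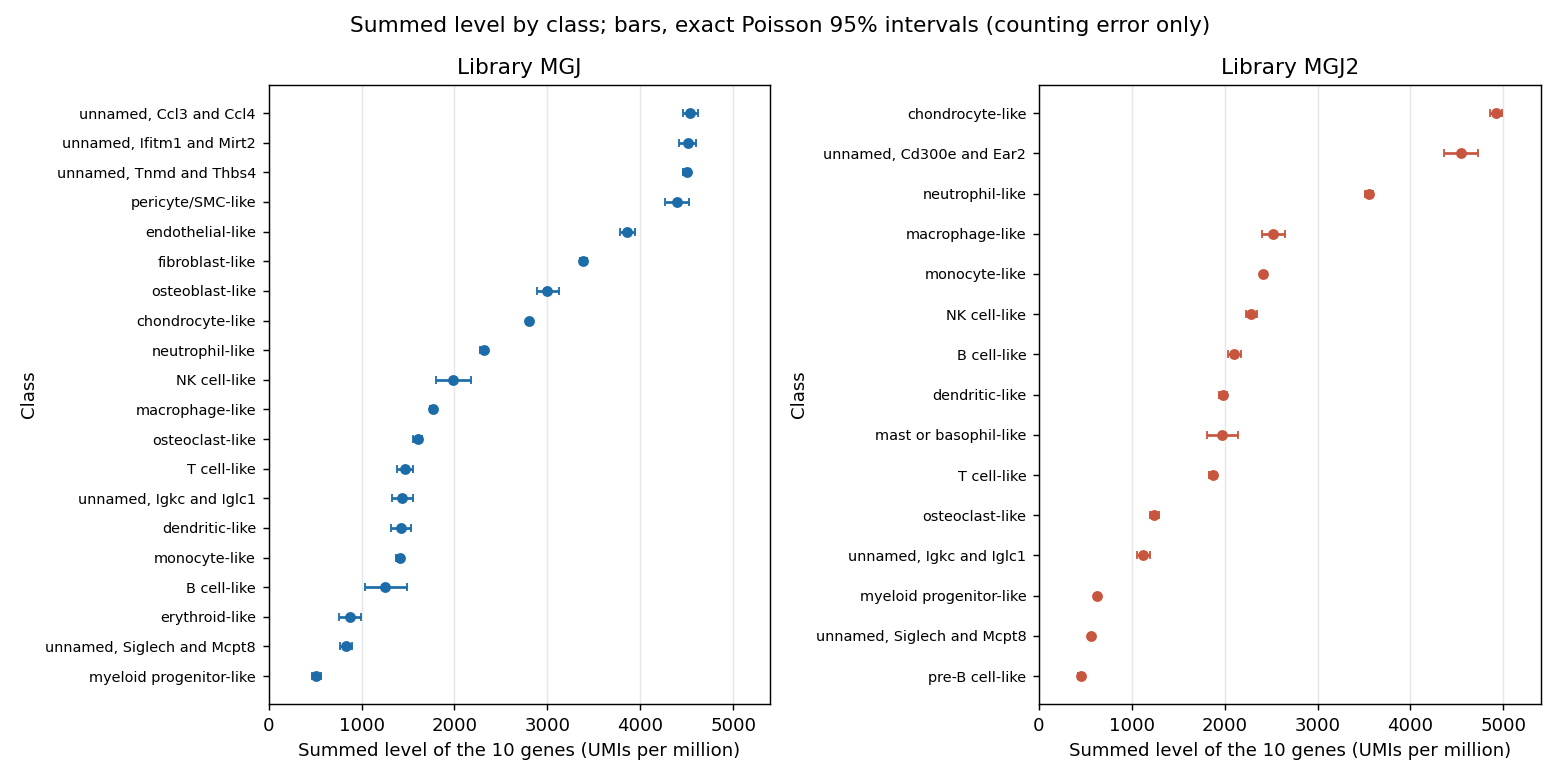
Summed level of the 10 genes (CPM) in each class of at least 50 cells, MGJ left and MGJ2 right, with exact Poisson 95% intervals. Chondrocyte-like cells are at 2807 in MGJ, in the eighth place of 20, and at 4919 in MGJ2, the highest of 15. The classes of connective tissue and vessels above them in MGJ had under 50 cells each in MGJ2 and are not shown there.

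Summed over the 10 members, the genes were present in every class, and the highest class exceeded the lowest by 8.86-fold in MGJ and 10.8-fold in MGJ2. In MGJ the highest levels were in the unnamed clusters led by Ccl3 and Ccl4 (4541 CPM, 95% interval 4464 to 4620), by Ifitm1 and Mirt2 (4513, 4422 to 4605) and by Tnmd and Thbs4 (4499, 4460 to 4537) and in pericyte or smooth muscle-like cells (4396, 4268 to 4527). Neighbours among these 4 could not be told apart beyond counting error. Endothelial-like (3863), fibroblast-like (3389), osteoblast-like (3002) and chondrocyte-like cells (2807) followed. Pericyte or smooth muscle-like, endothelial-like, fibroblast-like and osteoblast-like cells had under 50 cells each in MGJ2 and were not ranked there. Nor was the cluster led by Tnmd and Thbs4 (22 cells). In MGJ2, chondrocyte-like cells had the highest summed level (4919 CPM, 4851 to 4987), above the unnamed cluster led by Cd300e and Ear2 (4542, 4361 to 4729) and neutrophil-like cells (3555, 3510 to 3600), which were at 1675 when each cell was named by its highest marker score. At the low end, the unnamed cluster led by Siglech and Mcpt8 stood just above the lowest class of each library (832 CPM in MGJ, 772 to 895, and 564 in MGJ2, 542 to 587). Myeloid progenitor-like cells were lowest in MGJ (512 CPM, 467 to 562) and among the 3 lowest classes of MGJ2 (626, 606 to 646). Pre-B cell-like cells were lowest in MGJ2 (457, 425 to 491). That last place depended on the clustering: pre-B cell-like cells were at 830 CPM with doublet calls kept, 704 at a clustering resolution of 0.5, 702 at resolution 1 and 591 with each cell named by its highest marker score, above myeloid progenitor-like cells (637, 574, 587 and 428) each time. Of the neighbouring pairs in the order of classes, 8 of 19 in MGJ and 3 of 14 in MGJ2 could not be told apart. In myeloid progenitor-like cells all 10 members in MGJ and 8 in MGJ2 were at least 2-fold below the other cells, beside 46.7% and 39.5% of all genes tested.

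The member that made up most of the sum changed with the class. Junb, a Jun protein that is a weak activator on its own, led in neutrophil-like, NK cell-like, monocyte-like and dendritic-like cells of MGJ, where it held 37.7%, 44.0%, 41.7% and 59.2% of the summed UMIs. Jund, the most constantly expressed Jun gene, held 73.0% in erythroid-like cells and 62.1% in the cluster led by Igkc and Iglc1. In MGJ2, Fosl2 led in NK cell-like (42.9%) and T cell-like cells (44.6%), Fos in myeloid progenitor-like cells (46.5%) and Fosb in chondrocyte-like cells (26.5%).

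**Figure D2:**
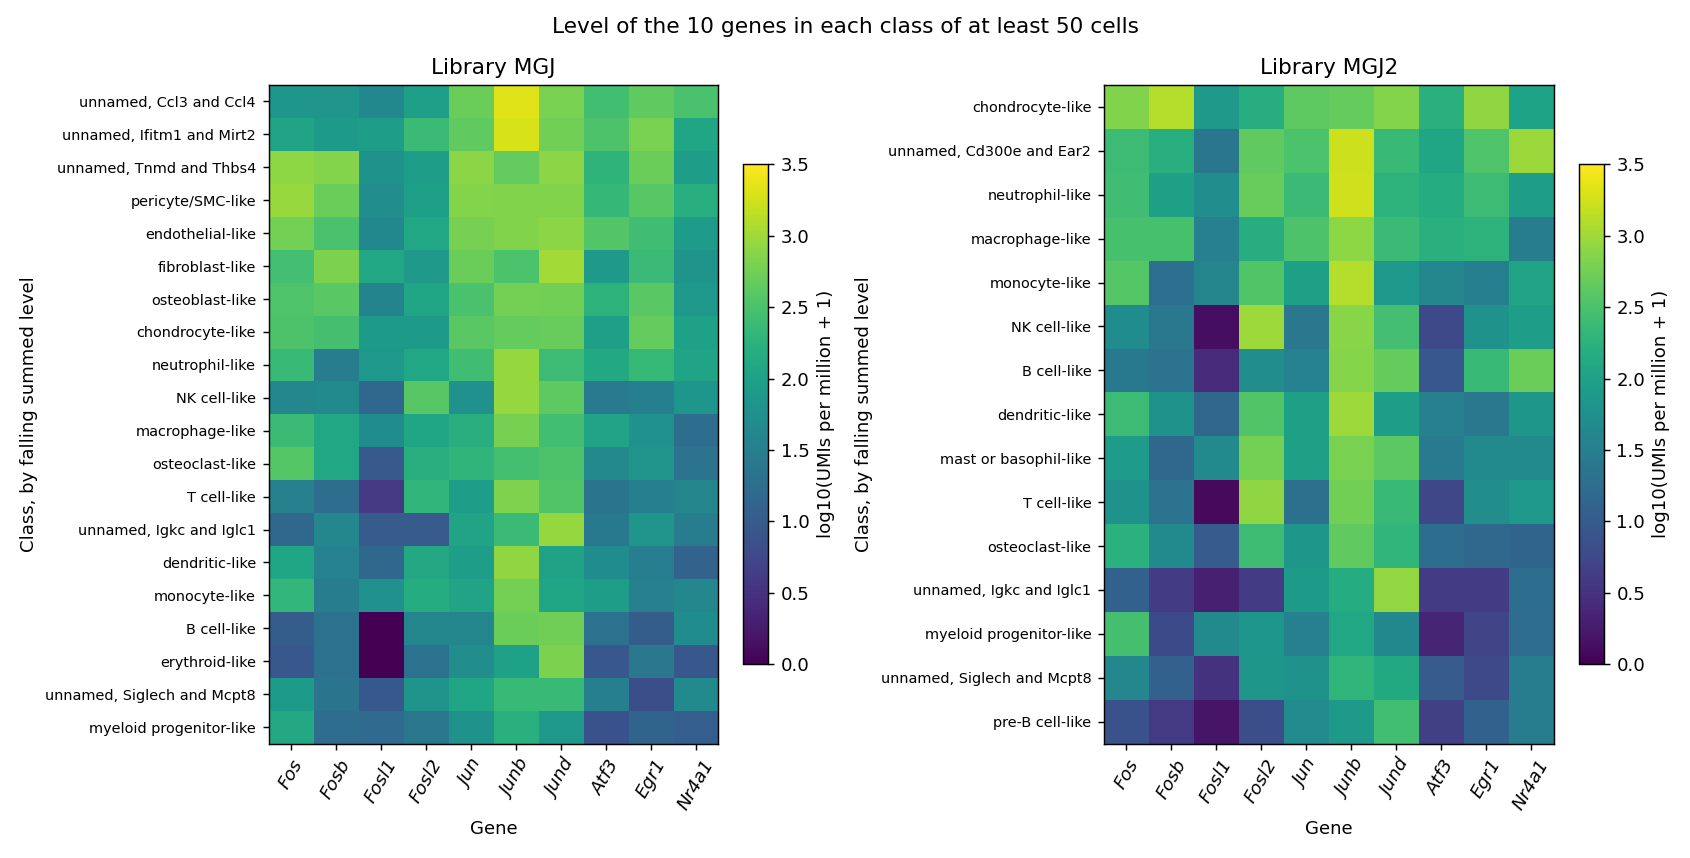
Level of each gene, as log10 of CPM + 1, in each class of at least 50 cells, ordered by summed level. Fosl2 is brightest in NK cell-like cells of both libraries (393 and 982 CPM). Junb is brightest in the clusters led by Ccl3 or Ifitm1 in MGJ (2103 and 1936). In MGJ2 it is brightest in neutrophil-like cells and the cluster led by Cd300e (1746 and 1725). Fosb is brightest in chondrocyte-like cells of MGJ2 (1305).

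Chondrocytes build the soft callus and turn into hypertrophic cartilage before bone replaces it. The question of whether these genes stood higher in them than in the other callus cells had a different answer in each library. In MGJ no member was past 2-fold in chondrocyte-like cells in either direction, while 15.3% of the 14587 genes tested were at least 2-fold higher and 26.2% at least 2-fold lower. In MGJ2, 7 of the 10 members were at least 2-fold higher and 1 (Fosl2) at least 2-fold lower, beside 19.8% and 33.2% of the 12989 genes tested. The median ratio over the members was 0.961 in MGJ and 3.42 in MGJ2, beside medians over all genes tested of 0.876 and 0.775. The summed level was 2807 CPM in chondrocyte-like cells and 2848 CPM in all other cells of MGJ, a ratio of 0.985 (0.979 to 0.992). In MGJ2 it was 4919 against 2050 CPM, a ratio of 2.40 (2.36 to 2.44).

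**Figure D3:**
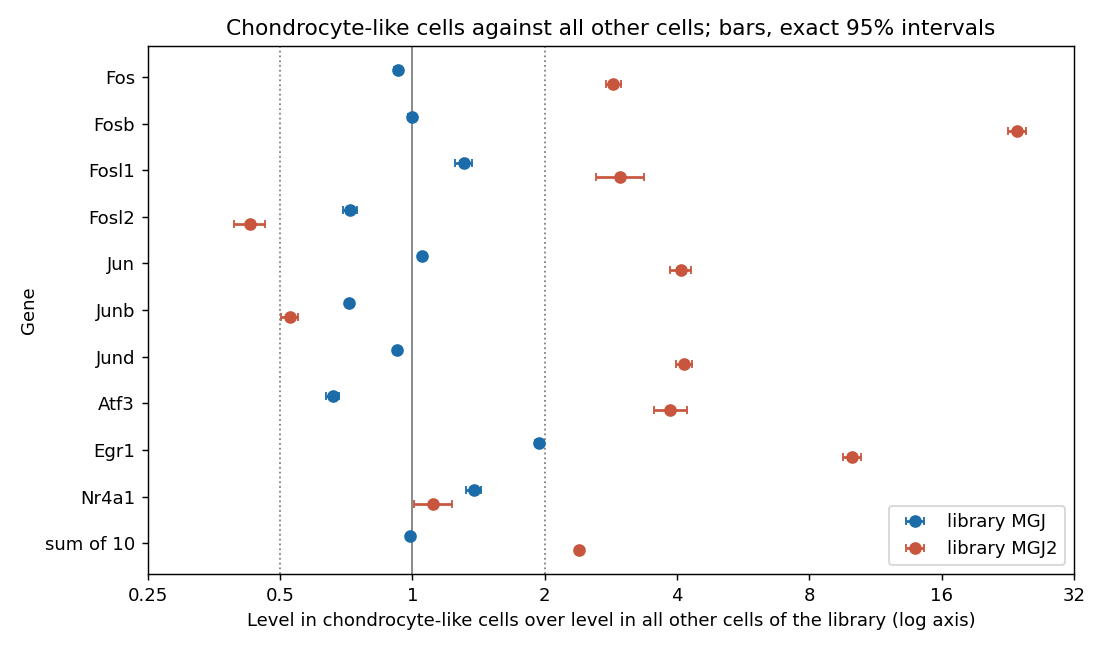
Level of each gene in chondrocyte-like cells over its level in all other cells of the same library, on a log axis, with exact 95% intervals. MGJ points lie between 0.658 (Atf3) and 1.94 (Egr1), and those of MGJ2 between 0.427 (Fosl2) and 23.7 (Fosb).

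Among the Fos genes, Fosb had the highest ratio in MGJ2 and the ratio nearest to 1 in MGJ. Its level in chondrocyte-like cells was 296 CPM (291 to 300) in MGJ and 1305 (1270 to 1340) in MGJ2, and in all other cells it was 297 and 54.9, so that the ratio was 0.996 (0.975 to 1.02) in MGJ and 23.7 (22.7 to 24.9) in MGJ2. The counting interval is narrower than the effect of the processing. The MGJ2 ratio was 5.02 with doublet calls kept, 5.35 with each cell named by its highest marker score and 5.98 at resolution 0.5. The chondrocyte-like class of MGJ2 then held 49, 38 and 48 cells in place of 137. Cells of that class in the main setting thus stood among the other cells, and the part of this in the lower ratios was not tested. The ratio was highest, at 30.4, with each library clustered alone. In MGJ the ratio was 1.79 with every cell weighted equally. Fos, the founding member, was at 332 CPM (327 to 336) in chondrocyte-like cells of MGJ and 685 (660 to 711) in MGJ2, with ratios of 0.925 (0.908 to 0.943) and 2.87 (2.75 to 2.99). Fosl1, which encodes Fra-1 and lacks a transactivation domain, was low at 80.3 and 76.3 CPM, with ratios of 1.31 and 2.97. Fosl2, which encodes Fra-2, went the other way in MGJ2: it was at 150 CPM in chondrocyte-like and 353 CPM in other cells, a ratio of 0.427 (0.393 to 0.462), and in MGJ the ratio was 0.721 (0.695 to 0.748).

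Of the Jun genes, Jun and Jund were higher in the chondrocyte-like cells of MGJ2 and Junb was not. Jun was at 431 CPM (411 to 452) against 106, a ratio of 4.08 (3.86 to 4.30), and Jund at 716 CPM (690 to 742) against 173, a ratio of 4.14 (3.97 to 4.32). Junb was at 463 CPM against 880, a ratio of 0.526 (0.502 to 0.550). In MGJ the ratios of Jun, Jund and Junb were 1.05, 0.922 and 0.716, from chondrocyte-like levels of 404, 485 and 470 CPM.

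Egr1, a zinc-finger factor induced by serum and load, had the highest ratio in MGJ, just under 2-fold: 467 CPM (462 to 473) in chondrocyte-like cells against 241 in the other cells, a ratio of 1.94 (1.90 to 1.98). In MGJ2 it was at 823 CPM (795 to 851) against 82.2, a ratio of 10.0 (9.56 to 10.5). Over the settings tried the ratio ran from 4.45 with each cell named by its highest marker score (38 chondrocyte-like cells) to 14.9 without neutrophil-like cells. Atf3, a stress-induced repressor of the same zipper family, was at 92.6 and 165 CPM, with ratios of 0.658 (0.637 to 0.681) in MGJ and 3.87 (3.54 to 4.22) in MGJ2. Nr4a1, an orphan nuclear receptor, was at 100.3 CPM (97.8 to 103) in MGJ and 106 (96.1 to 116) in MGJ2, with ratios of 1.38 and 1.12, inside 2-fold in both.

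Other measures moved beside these ratios, and their part in them was not tested. The cells against which chondrocyte-like cells were set differed in make-up, with 502 fibroblast-like cells and 717 cells of the cluster led by Tnmd and Thbs4 in MGJ, but under 50 of each in MGJ2. With the other named classes of at least 50 cells weighted equally, the summed ratio in MGJ became 1.34. In that setting 2 members, Egr1 (3.60) and Fosl1 (2.30), were at least 2-fold higher, against none when all other cells were pooled. It also left out the unnamed clusters. Those led by Ccl3 and Ccl4, by Ifitm1 and Mirt2 and by Tnmd and Thbs4 had 4541, 4513 and 4499 CPM. With doublet calls kept, only 49 chondrocyte-like cells were found in MGJ2, the summed ratio was 1.61 and Atf3 fell on the other side of 1 (0.885). Over all settings tried, the MGJ2 ratios ran from 1.82 to 4.01 for Fos, 2.63 to 4.22 for Fosl1, 0.264 to 0.454 for Fosl2, 2.69 to 5.09 for Jun, 0.304 to 0.625 for Junb, 2.56 to 4.51 for Jund and 0.750 to 1.23 for Nr4a1. Chondrocyte-like cells also had the highest median UMIs per cell of the classes of each library, 20685 in MGJ and 29607 in MGJ2.

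Shares of cells with a UMI were compared at a fixed depth. After each cell had been thinned to 2000 UMIs, Fosb was seen in 70.4% (61.9 to 77.9) of 135 chondrocyte-like cells of MGJ2 and in 7.35% (6.73 to 8.01) of the 6517 other cells. Egr1 was seen in 53.3% and 11.6%. In MGJ, Egr1 was seen in 48.8% (46.9 to 50.7) of 2814 chondrocyte-like and 21.9% (20.9 to 22.9) of 6654 other cells. Without thinning, the shares for Fosb in MGJ2 were 89.8% and 13.4%, and those for Egr1 in MGJ were 85.8% and 35.4%. Thinning left out 55 chondrocyte-like and 3287 other cells of MGJ, and 2 and 786 of MGJ2. For Fos, Fosb and Jund in MGJ the thinned share was higher in chondrocyte-like cells (30.4%, 33.2% and 54.2%) than in the others (24.3%, 19.0% and 45.7%) although the CPM was not, and no order was read from those shares. No class of the callus is known to lack these genes, so no share stands as background. The lowest thinned share of Fosb in a class of at least 50 thinned cells was 0.662% (myeloid progenitor-like cells of MGJ2).

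Within the chondrocyte-like class, the summed level varied little among its 4 clusters of at least 50 cells in MGJ, from 2710 to 3020 CPM, or 1.11-fold. Single members varied more. Atf3 was 60.7 CPM (58.0 to 63.5) in the cluster led by Ucma and Penk, genes of less mature cartilage, and 133 CPM (129 to 138) in the cluster led by Col10a1 and Ihh, markers of hypertrophic and prehypertrophic cartilage. Jun went the other way, at 469 and 317 CPM. Egr1 was 860 CPM in the 50 cells led by Saa1 and Chil1, acute-phase genes, and 424 to 624 CPM in the other 3 clusters. Over the 4 clusters the highest level exceeded the lowest by 2.20-fold for Atf3, 2.07-fold for Nr4a1 and 2.03-fold for Egr1, and by less than 2-fold for each of the other 7 members. In MGJ2 only the cluster led by Col10a1 and Ihh had 50 cells or more (102), with Fosb at 1446 CPM, Egr1 at 802 and Atf3 at 201.

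The other cells of the connective tissue and vessels carried the highest Fos, Fosb and Jun of MGJ. Pericyte or smooth muscle-like cells, the mural cells of vessels, had the highest Fos at 906 CPM (848 to 966), followed by the cluster led by Tnmd and Thbs4, genes known from tendon, at 809 (793 to 825) and by endothelial-like cells at 587 (557 to 618), each above the next beyond counting error. The cluster led by Tnmd and Thbs4 had the highest Fosb (717, 701 to 732) and Jun (779, 763 to 795), and 3 of the 10 members were at least 2-fold above the rest of the library there (Fos 2.73-fold, Fosb 2.85-fold and Jun 2.21-fold), beside 12.7% of all genes tested. In pericyte or smooth muscle-like cells Fos alone was at least 2-fold higher (2.66, 2.49 to 2.84), beside 16.3% of all genes. Fibroblast-like cells had the highest Jund (1037, 1016 to 1058) and Fosl1 (124, 117 to 132), with 2 members at least 2-fold higher (Fosb 2.40-fold and Jund 2.23-fold) beside 10.1% of all genes. Endothelial-like cells had the highest Atf3 (369, 346 to 394), the 1 member past 2-fold there (3.29, 3.08 to 3.52), beside 20.5% of all genes. In osteoblast-like cells (60 cells), the bone-forming cells, none of the 10 was past 2-fold (8.95% of all genes were higher and 31.9% lower), with Fosb at 395 CPM and Egr1 at 401. These classes had under 50 cells each in MGJ2 and were not measured there.

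Osteoclast-like cells, the bone-resorbing cells for whose formation Fos is required, were the highest class for no member. Within them Fos held the largest part of the summed UMIs in MGJ (23.3%) and Junb in MGJ2 (35.7%). Fos was at 374 CPM (352 to 397) in the 319 cells of MGJ and 173 CPM in the 85 cells of MGJ2, and 7 members in MGJ and 5 in MGJ2 were at least 2-fold below the other cells, beside 30.4% and 35.4% of all genes. The levels in MGJ moved with mitochondrial share and with depth. When the cells were split into tertiles by mitochondrial share, those of the highest (median 11.1%) had Fos at 1022 CPM and those of the lowest 127 CPM. Split by UMIs per cell, the lowest tertile (median 660.5 UMIs) had a summed level of 4532 CPM and the highest (21538 UMIs) 1277 CPM. These measures were not separated. With a limit of 10% mitochondrial UMIs the summed level of this class fell from 1603 to 912 CPM.

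Natural killer and T cell-like cells had a pattern that was alike in both libraries. Fosl2 was highest in NK cell-like cells, at 393 CPM (315 to 485) in MGJ (72 cells) and 982 CPM (946 to 1019) in MGJ2 (679 cells), and was at 203 and 834 CPM in T cell-like cells. Against the other cells of each library, Fosl2 was 4.13-fold (3.30 to 5.09) and 3.24-fold (3.11 to 3.37) higher in NK cell-like cells and 2.13-fold and 2.82-fold higher in T cell-like cells. It was the 1 member at least 2-fold higher in these classes, beside 20.2% and 17.2% of all genes for NK cell-like and 22.3% and 14.2% for T cell-like cells. At the same time 6 members (NK cell-like, both libraries), 7 (T cell-like, MGJ) and 6 (T cell-like, MGJ2) were at least 2-fold lower. Fos was at 40.7 and 49.3 CPM and Jun at 58.8 and 23.5 CPM in NK cell-like cells of MGJ and MGJ2. The shares of all genes at least 2-fold lower there were 47.7% and 28.7% for NK cell-like and 38.2% and 29.6% for T cell-like cells.

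B-lineage cells were separated in MGJ2, while those of MGJ were few. In the B cell-like cells of MGJ2 (543 cells), Nr4a1, which is known to follow antigen receptor signals, was at 522 CPM (488 to 557), a ratio of 6.37 (5.92 to 6.84) to the other cells, and Egr1 at 234 CPM. Nr4a1 and Jund (2.31) were at least 2-fold higher there, beside 18.7% of all genes, and 6 members were at least 2-fold lower, beside 32.4%. In pre-B cell-like cells (143 cells) Nr4a1 was at 29.9 and Egr1 at 11.4 CPM, and 9 members were at least 2-fold lower than in the other cells, beside 28.9% of all genes. The cluster led by Igkc and Iglc1, which also had Rag1 among its leading genes, had Jund as its highest member, at 892 CPM (806 to 984) in MGJ and 858 (801 to 919) in MGJ2, while Fos was at 13.6 and 11.4 CPM. In the 52 B cell-like cells of MGJ no member was at least 2-fold higher and 7 were lower, beside 20.4% and 55.1% of all genes. Nr4a1 was at 49.6 CPM (16.1 to 116) in them and 29.4 (15.7 to 50.3) in the cluster led by Igkc and Iglc1, so the intervals overlapped. Egr1 was at 9.92 CPM (0.251 to 55.3) and 65.6 CPM (43.9 to 94.2), also with overlap. Overlap of single intervals does not show that levels are alike. Fosl1 had 0 UMIs in the B cell-like cells of MGJ and in its erythroid-like cells, and a floor of 3 counts corresponds to 29.8 and 11.8 CPM (upper limits of the exact 95% interval, 36.6 and 14.5 CPM).

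Among myeloid cells, the highest Nr4a1 of either library was in the cluster led by Cd300e and Ear2 in MGJ2 (125 cells). Its best marker list, that of macrophages, scored too low for a name, and its leading genes include those of non-classical monocytes. Nr4a1, which is needed for that subset, was at 945 CPM (863 to 1032), a ratio of 10.8 (9.80 to 11.8), and 5 of the 10 members were at least 2-fold higher beside 8.29% of all genes. Monocyte-like cells of MGJ2 were at 110 CPM for Nr4a1 and at 1289 CPM (1271 to 1308) for Junb. Adgre4, a leading gene of the Cd300e and Ear2 cluster, was also among those of monocyte-like clusters with far lower Nr4a1. These were led by E230029C05Rik and Ptger2 (Nr4a1 at 116 CPM) and by Cd83 and Tnfsf9 (87.6 CPM). Macrophage-like cells were at 614 and 797 CPM for Junb and at 244 and 298 CPM for Fos in MGJ and MGJ2.

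Neutrophils are short-lived phagocytes released from marrow. Against the other cells of the library, none of the members was at least 2-fold higher and 2 (Fosb and Jund) were lower in neutrophil-like cells of MGJ, beside 8.31% and 65.3% of all genes, and 4 (Jun, Junb, Atf3 and Egr1) were higher and none lower in MGJ2, beside 8.42% and 68.1%. Within the class the members split by cluster, in a similar way in both libraries. Each library had 2 neutrophil-like clusters of at least 50 cells. In MGJ these were led by Csta3 and Cstdc4 (1459 cells) and by Orm1 and Ifitm6 (749 cells), and in MGJ2 by Gm39321 and 1600010M07Rik (1565 cells) and by Retnlg and Mmp8 (561 cells), the second of each pair having granule genes (Ngp and Camp in MGJ, Mmp8 in MGJ2) among its leading genes. This comparison was chosen after the values had been seen. Junb was at 1697 CPM in the first and 244 CPM in the second cluster of MGJ, a ratio of 6.97 (6.53 to 7.44), and at 2903 and 504 CPM in MGJ2, a ratio of 5.76 (5.46 to 6.08). Fos was the reverse, at 59.4 against 372 CPM in MGJ, a ratio of 0.160 (0.137 to 0.185), and at 82.8 against 455 CPM in MGJ2, a ratio of 0.182 (0.160 to 0.207). Junb and Fos thus differed in opposite directions between clusters of the same class.

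**Figure D4:**
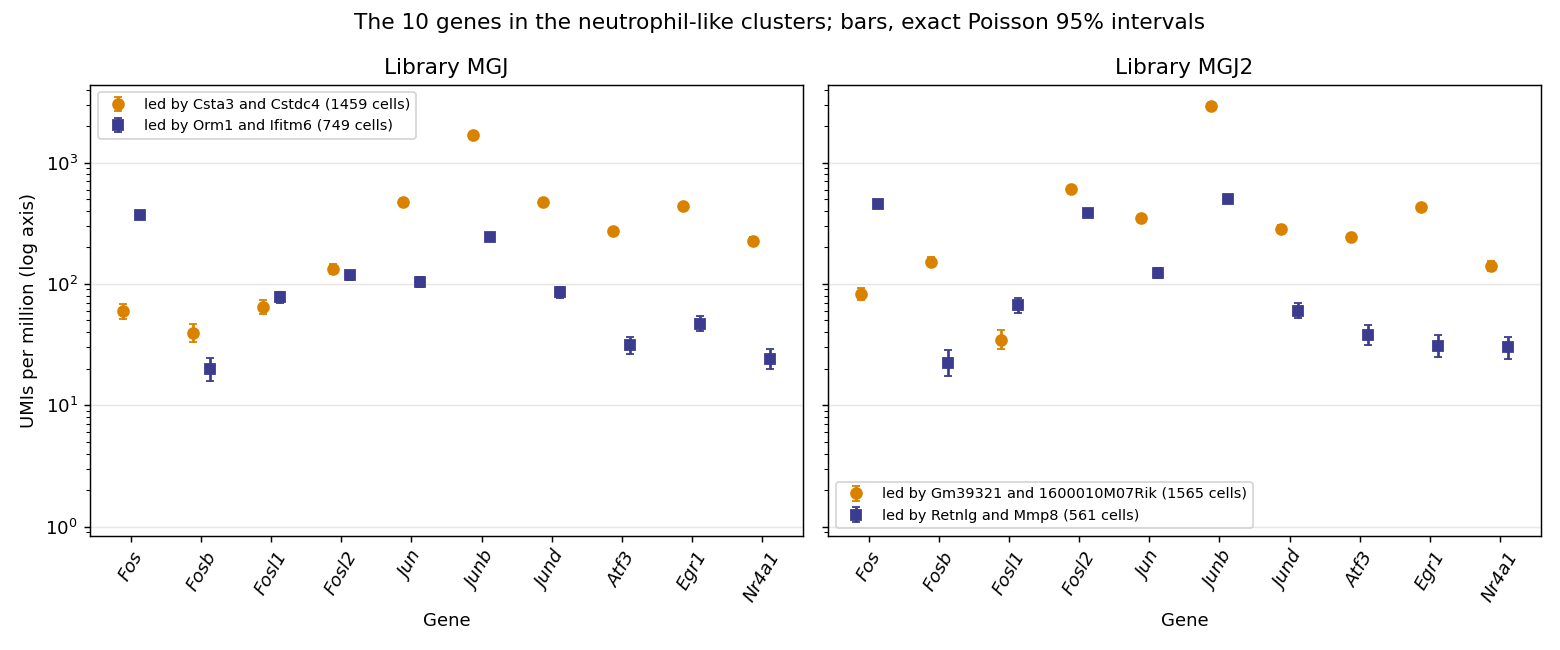
Level of each gene (CPM, log axis) in the neutrophil-like clusters of at least 50 cells, with exact Poisson 95% intervals. In both libraries Fos is higher in the second cluster (372 and 455), and Jun, Junb, Jund, Atf3, Egr1 and Nr4a1 are higher in the first.

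In all, 6 members (Jun, Junb, Jund, Atf3, Egr1 and Nr4a1) in MGJ were at least 2-fold higher in the first cluster and 1 (Fos) at least 2-fold lower, beside 17.9% and 27.0% of the 5422 genes tested. In MGJ2 these 6 and Fosb were at least 2-fold higher and Fos at least 2-fold lower, beside 24.5% and 13.3% of 5051 genes. Egr1 differed the most in MGJ2, at 430 against 31.0 CPM, a ratio of 13.9 (11.3 to 17.3), and was at 436 against 47.2 CPM in MGJ, a ratio of 9.25. Depth moved with these clusters, with medians of 1978 and 4762 UMIs per cell in MGJ and 2219 and 5139 in MGJ2. Its part in the difference was not tested. Thinning leaves the expected CPM of each kept cell as it was, so it cannot check that part. It kept 719 and 706 cells of the first and second cluster in MGJ, and 1005 and 547 in MGJ2. After thinning to 2000 UMIs, Junb was at 1678 and 270 CPM in MGJ and 2885 and 614 CPM in MGJ2, and Fos at 63.3 and 295 CPM and at 85.6 and 452 CPM. The unnamed clusters of MGJ led by Ccl3 and Ccl4 (1611 cells) and by Ifitm1 and Mirt2 (1139 cells), whose best marker list was that of neutrophils but whose UMI counts were low, had Junb at 2103 and 1936 CPM and Fos at 68.2 and 109 CPM. In each of them 3 members were at least 2-fold above the other cells (Junb and Atf3 in both, Nr4a1 in the first and Fosl2 in the second), beside 9.16% and 9.30% of all genes, and 2 members, Fos and Fosb, were at least 2-fold lower, beside 61.0% and 68.7%.

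How many members a single cell carried was read from cells thinned to 2000 UMIs. The median cell had a UMI of 3 members in chondrocyte-like cells of MGJ and of 4 in those of MGJ2, against 2 among all other cells of each library. A UMI of at least 5 members was seen in 21.3% and 43.7% of chondrocyte-like cells and in 14.8% and 6.89% of the other cells. In MGJ the share was higher still in the cluster led by Tnmd and Thbs4 (38.8%), pericyte or smooth muscle-like (35.3%) and endothelial-like cells (31.1%). The members' UMIs were unevenly spread: the tenth of cells with the most held 31.8% of them in chondrocyte-like cells of MGJ, 30.5% in those of MGJ2 and 41.9% in endothelial-like cells.

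Across cells of 1 class, correlations of log(1 + thinned UMIs) were weak to moderate, and they share the cell's library, sparsity and quality. In chondrocyte-like cells, Pearson's r for Fos and Fosb was 0.350 in MGJ (2814 cells) and 0.349 in MGJ2 (135 cells), for Fos and Jun 0.324 and 0.376, and for Fos and Egr1 0.257 and 0.443. Over all sets of a class and a library in which both genes were seen in at least 10% of cells, the pair with the highest median r was Jun and Egr1 (0.379 over 12 sets) and that with the lowest was Fos and Fosl1 (-0.0447 over 6 sets). Across classes, levels of the members (log2 of CPM + 1) were mostly correlated with each other, with r above 0 for 43 of 45 pairs over the 20 classes of MGJ (median 0.559) and for 41 of 45 over the 15 of MGJ2 (median 0.472). Jun and Egr1 had the highest r in MGJ (0.908) and Jun and Atf3 in MGJ2 (0.906). Fos and Jund were below 0 in both (-0.0199 and -0.404).

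Among the genes outside the lists whose level over the named classes (27 points from both libraries, centred within each) was most like the summed level, of 12685 genes compared, were Coq10b (r = 0.860), Pdlim5 (0.835), Zswim6 (0.825) and Tnfrsf12a (0.809). Tnfrsf12a encodes the receptor of the cytokine TWEAK. Of the members, which are themselves part of the sum, Egr1 (0.866), Fosb (0.814) and Atf3 (0.814) were nearest to it.

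The other genes of the pathway were counted in the same contrast of chondrocyte-like with all other cells. Beside the counts stand the shares of all genes tested: 15.3% higher and 26.2% lower in MGJ, and 19.8% and 33.2% in MGJ2. A count near its share says nothing particular about a list. Of 17 further immediate-early genes, 4 were at least 2-fold higher and 1 lower in MGJ, and 4 higher and 3 lower in MGJ2. Those higher were Ier2, Egr2, Nr4a2 and Btg2 in MGJ and Egr2, Egr3, Klf4 and Myc in MGJ2, and those lower were Dusp2 in MGJ and Nr4a3, Dusp2 and Zfp36 in MGJ2. These and the members of the other lists that are named for their count were named after their values had been seen. Klf4, a zinc-finger factor, was at 515 against 320 CPM in MGJ and 862 against 78.1 CPM in MGJ2. Ier3, an apoptosis inhibitor, was at 1949 against 1553 CPM in MGJ and 454 against 800 CPM in MGJ2 (0.567). Of the 13 upstream kinases and factors of the ERK, p38 and JNK routes, 0 and 1 were higher and 3 and 4 lower in MGJ and MGJ2, and Crem, which encodes cAMP-responsive regulators, was among the lower in both (ratios 0.130 and 0.0565), with Map2k1 and Mapk14, and with Creb1 in MGJ2. Srf, the serum response factor, was the 1 higher in MGJ2 (3.07). None of the 5 feedback regulators was at least 2-fold higher in either library and 1 was lower in each (Dusp4 in MGJ, Nab1 in MGJ2). Dusp5, a nuclear ERK phosphatase, was at 170 and 240 CPM with ratios of 1.07 and 0.870.

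Of the 8 tested among 9 other zipper partners, 1 (Batf3) was higher in each library and 2 (Batf and Atf1) and 4 (those and Jdp2 and Ddit3) were lower in MGJ and MGJ2. The shares of all genes beside this list and the next were again 15.3% higher and 26.2% lower in MGJ, and 19.8% and 33.2% in MGJ2. Jdp2, which pairs with Jun and represses, was at 67.0 against 104 CPM in MGJ (0.643) and 31.0 against 263 CPM in MGJ2 (0.118), and Atf4 was at 526 and 451 CPM with ratios of 1.44 and 0.947. Among 13 genes known to carry AP-1 sites, 4 were higher (Plau, Ccnd1, Vegfa and Lif) and 4 lower (Mmp10, Mmp12, Hmox1 and Il6) in MGJ. Of the 11 tested in MGJ2, 6 were higher (those 4, Mmp13 and Timp1) and 4 lower (Mmp12, Hmox1, Il6 and Tgfb1). Timp1, an inhibitor of matrix proteinases, was at 1543 against 859 CPM in MGJ (1.80) and at 775 against 19.4 CPM in MGJ2 (40.0). Mmp13, the collagenase of hypertrophic cartilage, was at 556 against 530 CPM in MGJ (1.05) and had a ratio of 13.3 in MGJ2. Hmox1, a haem-degrading enzyme, was lower in both (0.0894 and 0.275).

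Heat shock and chaperone genes, which are also known to follow dissociation, were counted beside the members. Here too 15.3% of all genes were higher and 26.2% lower in chondrocyte-like cells of MGJ, and 19.8% and 33.2% in those of MGJ2. Of 14, none was at least 2-fold higher and 4 (Hspa1a, Hspa1b, Hspa8 and Hsph1) were lower in chondrocyte-like cells of MGJ, and 4 (Hspb1, Dnajb1, Dnajb4 and Bag3) were higher and none lower in MGJ2. Their summed level was 3176 CPM in chondrocyte-like and 4247 in other cells of MGJ, and 3327 and 2814 in MGJ2. Over classes it ranged from 951 CPM in the cluster led by Ifitm1 and Mirt2 to 7976 CPM in endothelial-like cells of MGJ, and from 740 CPM in neutrophil-like to 6144 CPM in osteoclast-like cells of MGJ2. Its correlation over classes with the summed members was 0.0133 in MGJ (20 classes) and -0.468 in MGJ2 (15 classes), with log2 levels.

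**Figure D5:**
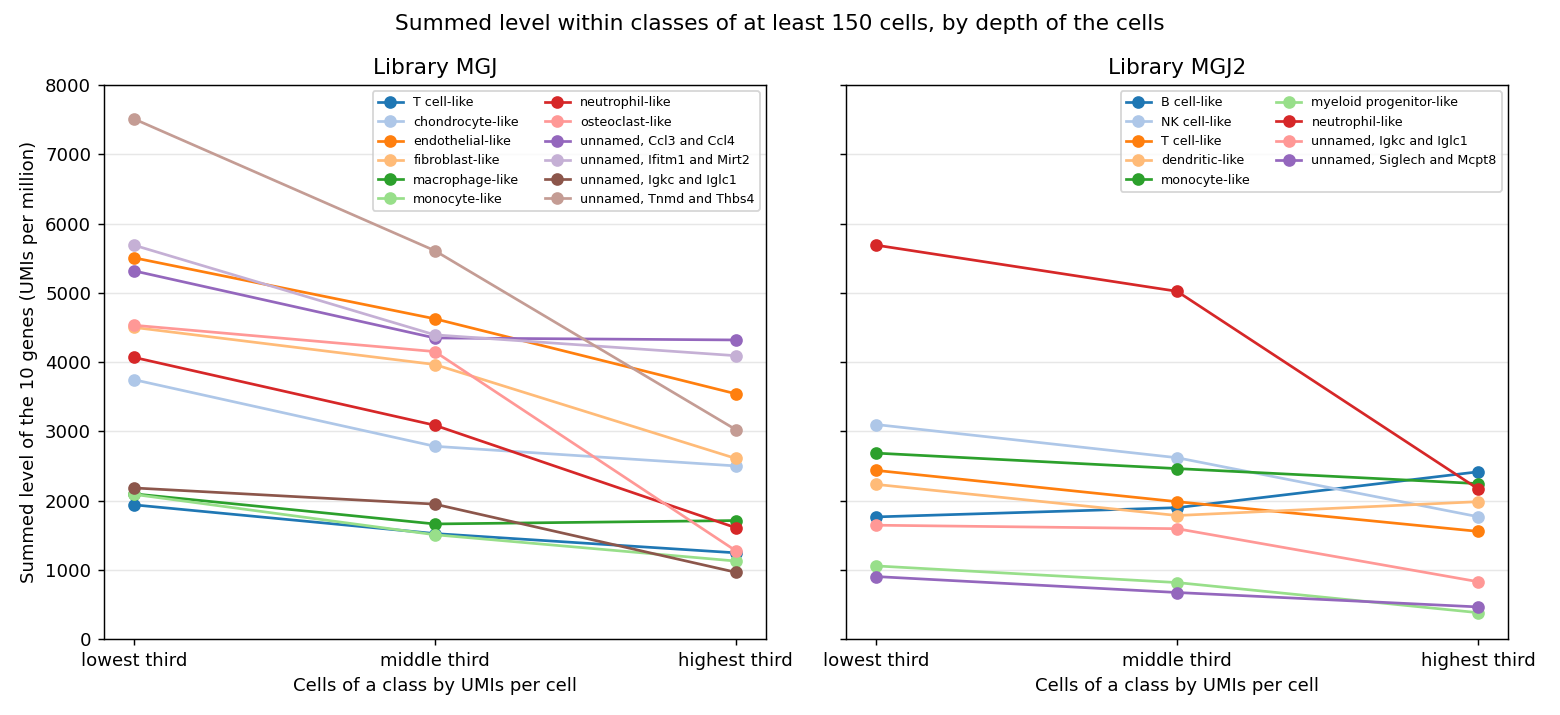
Summed level of the 10 genes (CPM) in the lowest, middle and highest tertile of cells by UMIs per cell, for each class of at least 150 cells. The highest tertile lies below the lowest in all 12 classes of MGJ and in 8 of 9 of MGJ2, B cell-like cells being the exception.

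Depth moved with the members inside nearly every class. When the cells of a class were split into tertiles by UMIs per cell, the tertile with the most UMIs had a lower summed level than that with the fewest in all 12 classes of MGJ of at least 150 cells (ratio 0.282 to 0.816) and in 8 of 9 of MGJ2 (0.362 to 1.37 over the 9). In chondrocyte-like cells of MGJ the summed level was 3747 CPM in the lowest tertile (median 11865.5 UMIs) and 2501 in the highest (29318 UMIs), and Fos was at 579 and 258 CPM. In the cluster led by Tnmd and Thbs4, Fos was at 1884 and 350 CPM. The tertiles by mitochondrial share had no common direction, the highest being above the lowest in 6 of 12 classes of MGJ and 4 of 9 of MGJ2. In neutrophil-like cells it was below in both, at 1632 against 3555 CPM in MGJ and 2595 against 5175 CPM in MGJ2.

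RNA that floats free in the suspension can place UMIs in cells that do not make them. Col2a1, a collagen of cartilage, was seen in 75% to 98.4% of the cells of each other class of MGJ, at 0.512% to 4.07% of its level in chondrocyte-like cells, and in 16.2% to 36.5% of those of MGJ2, at 0.0465% to 0.172%. Were all of that Col2a1 free RNA and the members carried with it in proportion, free chondrocyte RNA would hold at most 114 CPM of the summed level in any class of MGJ (osteoblast-like cells) and 8.46 CPM in MGJ2 (neutrophil-like cells). The summed level was 3002 and 3555 CPM in those classes, and 512 and 457 CPM in the lowest class of each library. For a single member at a low level, such as Fos in lymphoid cells of MGJ (9.92 to 40.7 CPM), free RNA of any source was not separated from expression.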

How the data were processed

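Both libraries were made from digested callus with the 10x Genomics Chromium 3′ v3 kit. Per the file headers, the authors counted reads with Cell Ranger 4.0.0, and the deposited matrices hold raw UMI counts per gene and barcode (14295 barcodes and 135304426 UMIs in MGJ, 8009 and 61130834 in MGJ2, with at least 501 and 500 UMIs per barcode). Per the labels the build was GRCm38 and Cell Ranger and Seurat were used. The annotation is not given in the sources used here.

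Barcodes with under 200 genes (371 and 70) or over 20% mitochondrial UMIs (464 and 133) were left out. Scrublet in scanpy 1.11.5, on log-transformed counts, then called 650 (4.83%) and 366 (4.69%) doublets, below the 10.8% and 6.24% expected from the load. Counts were log-normalized, and the 2000 most variable genes without members, listed genes or mitochondrial genes gave 30 principal components. A graph of 15 nearest neighbours was clustered with leidenalg 0.10.2 (resolution 1.25, chosen after leading genes had been seen and before member values were). A cluster was named when its best marker list had a mean relative log2 level of at least 1 and 3 or more detected markers. It stayed unnamed where another list held as many of its 10 leading genes (and 2 or more), or where its UMIs were low and no marker led it. Names were rebuilt here and may differ from the study's own.

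Levels are summed UMIs of a class over its total, per 1000000. The libraries have no group in the labels, so no test was made. Ratios, with at least 50 UMIs of a gene in the library, have 95% intervals that cover counting error only. The count ratios were tested on simulated Poisson counts, the model that the intervals assume. That test does not cover the uneven spread of UMIs between cells. The members, lists and markers were chosen with earlier results of these data known. Named genes are the 10 members, at most the 3 of most UMIs in each other list, and the 5 most like the sum, of which 1 is not reported here. A few other list genes and single classes were chosen after their values were seen. Sequences are from RefSeq, and Fosl1 and Egr1 are named only. Tools were numpy 2.4.6, scipy 1.17.1 and Python 3.11.15.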

Additional observations from a re-analysis of the deposited data

Results flagged for a closer look

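The genes were also counted in barcodes outside the comparisons above. Barcodes removed for few genes or a high mitochondrial share had a summed level of 3145 CPM (3054 to 3238) in MGJ (835 barcodes) and 1445 CPM (1331 to 1566) in MGJ2 (203 barcodes), beside 2828 and 2261 CPM in the cells kept. Barcodes called doublets had 3199 CPM (3165 to 3234) in MGJ (650 barcodes) and 2413 CPM (2370 to 2457) in MGJ2 (366 barcodes). All 4 values lie above what a count of 0 allows, and there is no control sample. The removed barcodes of MGJ2 were below the kept cells and the other 3 sets above.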

How the results depend on the processing

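The ratio of summed members in chondrocyte-like over all other cells (0.985 in MGJ, 2.40 in MGJ2) was recomputed under each alternative. In MGJ it was 0.977 without mitochondrial, haemoglobin and the 20 most abundant genes, 1.002 with at least 500 genes, 0.904 with doublet calls kept, 0.922 with each cell named by its own score, 1.04 with cells thinned to 2000 UMIs, 0.878 with cells weighted equally, 1.01 as a mean of logs, 0.978 with list genes in the clustering, 0.907 at resolution 0.5, 1.07 without Junb, 1.34 with classes weighted equally and 1.23 without unnamed cells. In MGJ2 the same settings gave 2.13 (abundant genes left out), 1.61, 1.53, 1.998, 1.79, 2.81, 2.49, 1.89, 3.81, 2.57 and 2.28 in that order (without the 500-gene limit, which stayed inside the interval at 2.42), 2.32 with at most 10% mitochondrial UMIs and 2.46 with each library clustered alone. Without neutrophil-like cells and the clusters led by Ccl3 and Ifitm1, a setting added after the data were seen, as was resolution 1, it was 1.01 and 2.71. The ratio in MGJ2 was above 1 in each of these settings, and that in MGJ lay on both sides of 1. Equal weight of classes covered only the other named classes of at least 50 cells, so unnamed clusters were left out there too. With doublet calls kept, cells named by score or resolution 0.5, the chondrocyte-like class of MGJ2 held 49, 38 and 48 cells in place of 137.

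The count of members at least 2-fold higher in MGJ was 0, but 1 with at least 500 genes, with thinning, without neutrophil-like cells or without unnamed cells, and 2 with classes weighted equally. In MGJ2 it was 5 to 7. The count at least 2-fold lower in MGJ was 0, but 1 with doublet calls kept or at resolution 0.5 and 2 with cells weighted equally. In MGJ2 it was 1, but 2 in 7 settings (abundant genes left out, doublet calls kept, cells named by score, thinning, equal weight of cells, resolution 0.5 and unnamed cells left out). Atf3 in MGJ2 fell from 3.87 to 0.885 with doublet calls kept and 0.848 at resolution 0.5, where the chondrocyte-like class had 49 and 48 cells. The cause was not tested. Summed class levels moved by over 1.5 times in some settings for dendritic-like, erythroid-like, neutrophil-like and osteoclast-like cells of MGJ and macrophage-like, mast or basophil-like, neutrophil-like, osteoclast-like and pre-B cell-like cells of MGJ2. No paired analysis was possible because neither library has a group. Classes under 50 cells and members of few UMIs are limited by depth.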
